A study of Mus musculus with 6 samples.

Results

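The 9 genes described here mark naive or resting T cells or steer T cells through lymph nodes, and they were followed in regulatory T cells (Tregs) of mice with intact or floxed alleles of Junb, the gene of the AP-1 subunit JunB. They were taken by symbol: the transcription factors Tcf7, Lef1, Satb1, Foxp1, Klf2 and Klf3, the egress receptor S1pr1, and the transcripts Igfbp4 and Dapl1. All 9 were found among the 53379 gene identifiers of the deposited tables, and all 9 passed the filter on low counts that left 20475 genes. The libraries came from sorted Tregs of C57BL/6 mice at 3 months of age. All mice carried the Foxp3YFP-Cre allele, in which Foxp3 drives Cre. In 3 libraries (genotype Foxp3YFP-CrexJunb+/+, here WT) Junb was intact, and in the other 3 (Foxp3YFP-CrexJunbFlox/Flox, here KO) both Junb alleles were floxed. Cre under Foxp3 acts in cells that have made Foxp3. The gate used in the sort was not stated, and neither was whether the replicates were different mice.

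Naive and resting T cells are kept out of the cell cycle and in circulation by a small group of transcription factors. TCF1 (from Tcf7) and LEF1 bind DNA through an HMG box and are high in naive and memory-like T cells, FOXP1 holds naive T cells quiescent, and KLF2 activates the gene of the homing receptor S1PR1. S1PR1 senses sphingosine-1-phosphate and lets T cells leave lymph nodes, and CD69 draws it off the cell surface after activation. Tregs exist in a resting, lymph node homing form and in an effector form, and many of these genes are higher in the resting form. The comparison asked whether the 9 genes differ between Tregs of mice with floxed and with intact Junb alleles.

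Library totals lay between 33784183 and 41231173 counts, and the lowest count of any of the 9 genes in any library was 774 (Igfbp4). Levels are given as CPM, the counts of a gene scaled to the TMM-adjusted total of its library, always in the order of replicates 1, 2 and 3. Junb itself stood at 87.1, 77.5 and 89.5 CPM in the WT libraries against 57.1, 57.3 and 49.6 CPM in the KO libraries. Every KO library was below every WT library, and the log2 difference was -0.63 (SE 0.13, edgeR adjusted p = 0.9999, exact permutation p = 0.1). DESeq2, run as an alternative, called 63 genes, among them Junb as lower in KO (adjusted p = 0.004171). Junb reads thus remained in the KO libraries, and the counts do not show which stretch of the gene they come from. Junb shares 173 exonic bases with Prdx2 on the opposite strand, which had 192% as many counts as Junb. The Treg factor Foxp3 was present in every library, at 32.7 to 39.5 CPM in WT and 28.1 to 39.0 CPM in KO, and it shares 853 exonic bases with Flicr on its own strand. On the opposite strand Foxp3 shares 590 exonic bases with Ccdc22, 373 with Gm36995 and 266 with Ppp1r3f. These had 80.9%, 93.2% and 24.7% as many counts as Foxp3. The 12 pan T and Treg markers were all detected, with a summed level of 4500 to 5780 CPM in WT and 3630 to 4600 CPM in KO. All 12 had a lower mean in KO, where 0 were called and the median log2 difference was -0.285. KO replicate 1 had the lowest sum. On the mean of all 6 libraries the most abundant were the signalling genes Lck (939 ± 38.5 and 905 ± 56.3 CPM in WT and KO) and Lat (552 ± 52.3 and 507 ± 68.5 CPM), while in WT alone Cd3g was above Lat (595 ± 142 CPM). The names of the deposited tables carry a number that divides the libraries into set A (WT replicates 1 and 2, KO replicate 2) and set B (WT replicate 3, KO replicates 1 and 3). The labels do not say what it marks.

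The stretches upstream of 4 of the genes are shown because Dapl1, Lef1, Satb1 and Igfbp4 are among the 7 genes with their highest level in the same KO library, and because these windows lie wholly before the annotated gene. Each is the 250 bases before a RefSeq transcription start on GRCm38.p6, 5′ to 3′ on the gene's strand. Capitals mark the letters of the motifs searched. A window of Tcf7 meets the same conditions and is not printed.
Dapl1, chr2:59484403-59484652, plus strand: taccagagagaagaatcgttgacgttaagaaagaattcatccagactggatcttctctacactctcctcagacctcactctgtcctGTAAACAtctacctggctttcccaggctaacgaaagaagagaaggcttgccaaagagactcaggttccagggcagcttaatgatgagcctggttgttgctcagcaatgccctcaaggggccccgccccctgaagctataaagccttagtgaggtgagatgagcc
Lef1, chr3:131110047-131110296, plus strand: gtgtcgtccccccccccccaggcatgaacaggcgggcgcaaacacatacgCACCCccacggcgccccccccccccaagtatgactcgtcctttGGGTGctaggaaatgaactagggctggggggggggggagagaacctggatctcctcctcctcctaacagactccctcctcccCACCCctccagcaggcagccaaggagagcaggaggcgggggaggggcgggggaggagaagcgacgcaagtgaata
Satb1, chr17:51833291-51833540, minus strand: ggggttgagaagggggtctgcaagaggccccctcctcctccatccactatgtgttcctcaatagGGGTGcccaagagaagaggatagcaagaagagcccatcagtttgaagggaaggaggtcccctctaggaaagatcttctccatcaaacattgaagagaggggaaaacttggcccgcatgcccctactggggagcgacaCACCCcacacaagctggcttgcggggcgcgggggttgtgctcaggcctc
Igfbp4, chr11:99040994-99041243, plus strand: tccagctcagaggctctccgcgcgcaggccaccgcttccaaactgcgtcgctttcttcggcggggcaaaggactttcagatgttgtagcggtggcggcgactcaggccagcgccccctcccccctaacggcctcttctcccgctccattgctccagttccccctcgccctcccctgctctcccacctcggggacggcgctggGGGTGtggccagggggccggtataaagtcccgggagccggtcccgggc

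Motifs were searched on both strands in the 18 upstream windows that RefSeq gives for 8 of the 9 genes, all but S1pr1. The AP-1 motif TGANTCA, which JunB dimers bind, was in 0 of the 18 windows, against 6.75% of the 32841 windows of all genes. The related CRE motif TGACGTCA was also in 0 of the 18, against 1.55% of all. The KLF motif CACCC was in 15 of the 18 windows and in 7 of the 8 genes, against 52% of all windows. The Dapl1 window was the exception, and it alone held the FOX motif TGTTTAC (3.17% of all windows), in the reverse orientation from position -164 to -158 before the start. The TCF/LEF motif, CTTTGAT or CTTTGAA, was in 1 window, of Foxp1, against 7.48% of all. The ETS motif CCGGAAG was in 1 window, of Tcf7, against 6.91%. Some windows of Lef1 and of Satb1 overlap each other, so their matches are not separate. The windows of the 8 genes held between 44.8% and 80.8% G and C, most of them above the median of all windows, 52.4%. The motif shares were not compared with windows of like G and C content, and a match is a match of letters only.

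None of the 9 genes passed the test between genotypes. With edgeR over 20475 genes, 0 of the 9 were called at an adjusted p of 0.05, where 0% of all genes were. At an unadjusted p under 0.05 Dapl1 alone was past the line, and 2.88% of all genes were. For 0 of the 9 genes did the 3 KO libraries lie apart from the 3 WT libraries, against 7.76% of all genes (3.68% with KO higher and 4.07% with KO lower). DESeq2 and limma-voom also called 0 of the 9, against 0.272% and 0% of all genes. In 7 of the 9 the KO mean was the higher one, against 50.9% of all genes, and the median log2 difference of the 9 was 0.27 against 0.005. Without KO replicate 1 that count was 5 of 9 and the median 0.022.

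**Figure D1:**
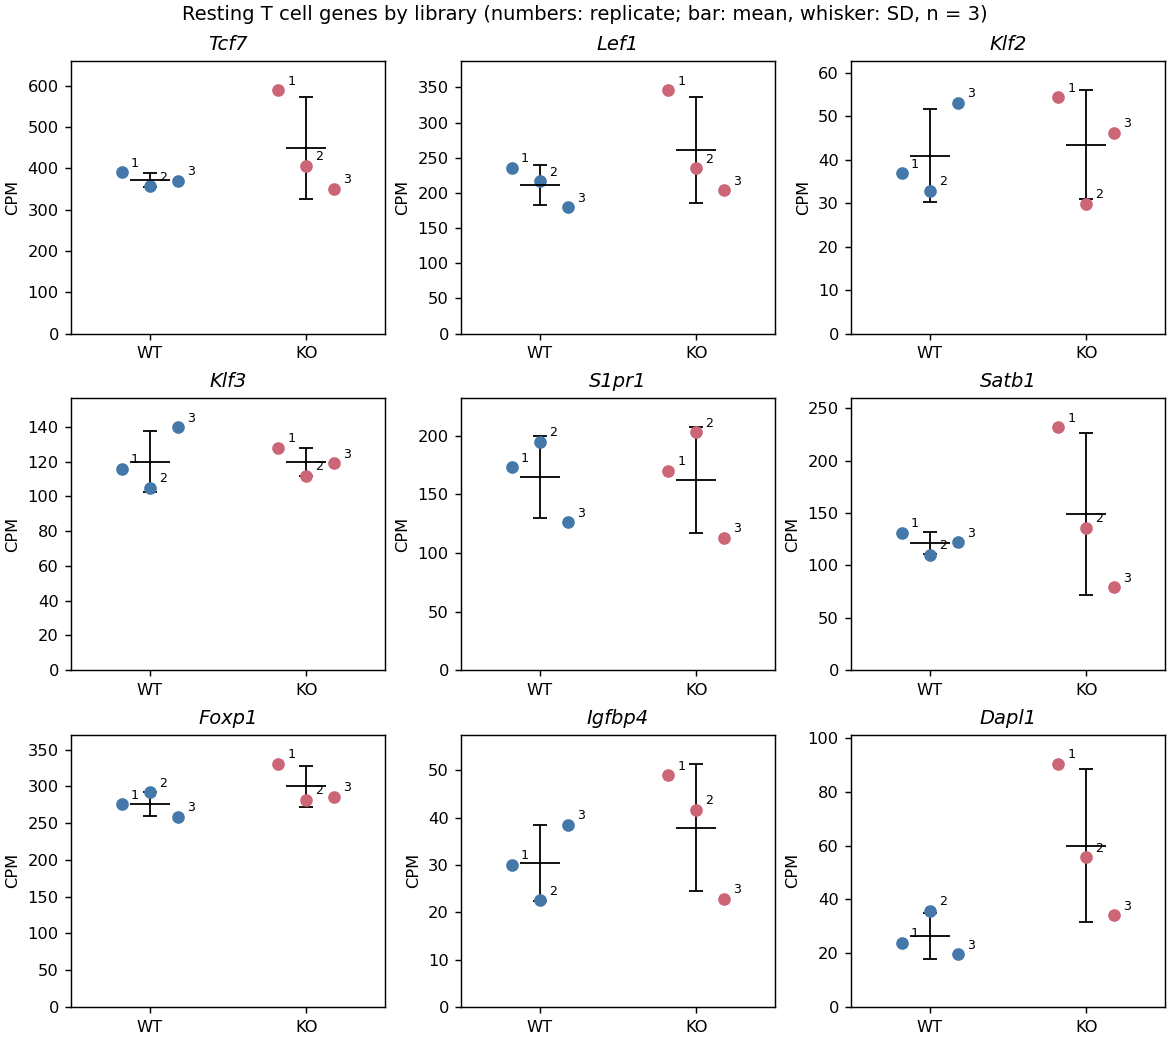
CPM of the 9 genes in each library, with WT in blue and KO in red, numbers for the replicate, a bar for the mean and a whisker for 1 SD (n = 3). KO replicate 1 is the highest point in 7 panels, all but Klf3 and S1pr1, and every gene has KO points within the WT range or on both sides of it.

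The transcription factors TCF1 and LEF1 had close profiles. Tcf7 (ENSMUSG00000000782.15, chr11:52252371-52283014 on GRCm38, minus strand) was at 390, 356 and 370 CPM in WT and 589, 406 and 351 CPM in KO. KO replicate 1 was far above the rest, KO replicate 2 just above the WT range and KO replicate 3 just below it, so the genotypes overlapped. The WT mean was 372 ± 16.9 CPM and the KO mean 449 ± 124 CPM (each ± is 1 SD over 3 libraries), and the log2 difference, KO minus WT throughout, was 0.27 (SE 0.19, 95% interval -0.19 to 0.73, edgeR adjusted p = 0.9999). Lef1 (ENSMUSG00000027985.14, chr3:131110471-131224356, plus strand) was at 236, 217 and 180 CPM in WT and at 346, 235 and 204 CPM in KO. Again KO replicate 1 stood out while KO replicates 2 and 3 lay inside the WT range. The Lef1 means were 211 ± 28.6 and 261 ± 74.8 CPM, with a log2 difference of 0.31 (SE 0.22, interval -0.21 to 0.82, edgeR adjusted p = 0.9999). Without KO replicate 1 the log2 differences were 0.02 for Tcf7 and 0.05 for Lef1. Lef1 shares 1208 exonic bases with the antisense gene Gm43352, which had 2.21% as many counts.

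The ratio of Lef1 to Tcf7, per length of annotated exon, was 0.181, 0.182 and 0.145 in WT and 0.176, 0.173 and 0.173 in KO. The KO libraries differed less among themselves in this ratio than in either gene. In WT the ratio varied more than Tcf7 did, with WT replicate 3 the lowest. The 2 genes were each other's nearest partner among the 9: their log2 CPM, centred on each gene's mean, differed by a root mean square of 0.11 over the 6 libraries. Among the other 8015 protein-coding genes compared, Trappc8, a subunit of a vesicle tethering complex, followed Tcf7 most closely (root mean square 0.048) and was second for Lef1 (0.074). Next for Tcf7 came Cdkn2d, an inhibitor of cyclin-dependent kinases (0.061), and first for Lef1 came the Golgi protein gene Golga1 (0.071).

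The chromatin organizer Satb1 had the widest spread among the KO libraries. SATB1 shapes chromatin loops in T cells and is held low in Tregs by FOXP3. Satb1 (ENSMUSG00000023927.15, chr17:51736187-51833290, minus strand) was at 131, 110 and 122 CPM in WT and at 232, 136 and 79.3 CPM in KO. KO replicate 1 was above every WT library and KO replicate 3 below every one. The coefficient of variation was 8.68% in WT and 51.8% in KO, with means of 121 ± 10.5 and 149 ± 77.2 CPM. The log2 difference of 0.30 (SE 0.35, interval -0.53 to 1.14, edgeR adjusted p = 0.9999) turned to -0.17 without KO replicate 1.

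Another 6 annotated genes overlap Satb1, and reads of those on the same strand cannot be told from unspliced Satb1 reads. The most abundant of them, C230085N15Rik, shares no annotated exon with Satb1 and had 45.4% as many counts. It was at 62.8, 47.0 and 40.9 CPM in WT and at 85.2, 88.6 and 45.8 CPM in KO, so KO replicates 1 and 2 were above every WT library, and KO replicate 3 was within their range. Gm37248, also without a shared exon, was at 30.8, 25.8 and 31.3 CPM in WT and at 64.8, 36.8 and 18.6 CPM in KO. Its order of the KO libraries was that of Satb1 itself.

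FOXP1, a forkhead factor that keeps naive T cells from dividing, was encoded by one of the steadiest transcripts of the group. Foxp1 (ENSMUSG00000030067.17, chr6:98925338-99522721, minus strand) was at 276, 292 and 259 CPM in WT and at 331, 282 and 286 CPM in KO. Only KO replicate 1 left the WT range. The means were 276 ± 16.3 and 300 ± 27.5 CPM, a log2 difference of 0.12 (SE 0.11, edgeR adjusted p = 0.9999). The interval of -0.15 to 0.39 corresponds to 0.902 to 1.31 times the WT level. Foxp1 shares 300 exonic bases with Gm20696, which had 7.61% as many counts, and 135 with the miRNA gene Gm49348, which had 1.71%.

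**Figure D2:**
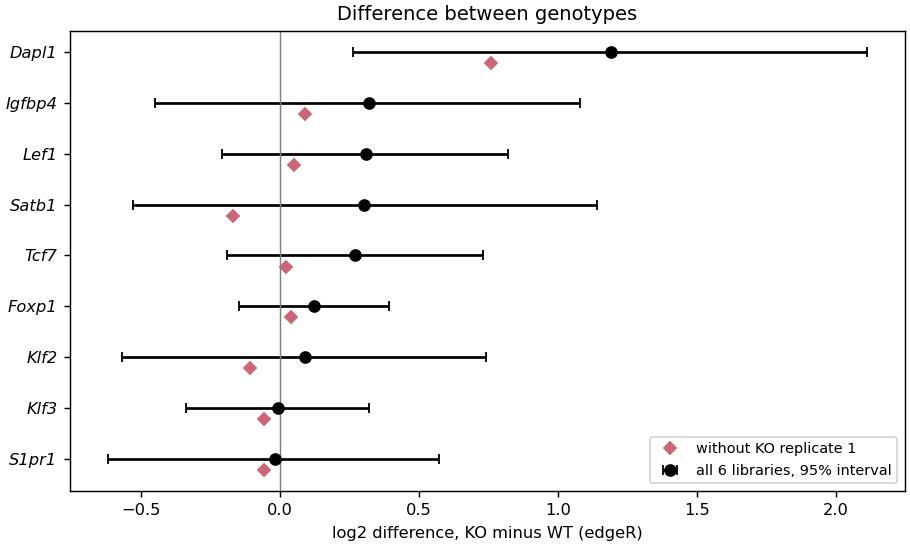
Log2 difference of each gene, KO minus WT, by edgeR with its 95% interval (black), and the same difference without KO replicate 1 (red diamonds). Dapl1 is the only gene whose interval lies above 0, from 0.26 to 2.11, and every diamond lies to the left of its black point.

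KLF2 and KLF3 are zinc finger factors that bind the same CACCC letters, KLF2 mostly as an activator and KLF3 as a repressor. Klf2 (ENSMUSG00000055148.7, chr8:72319033-72321656, plus strand) was at 36.9, 32.9 and 53.1 CPM in WT and at 54.4, 29.9 and 46.2 CPM in KO. Both genotypes held low and high libraries, and the means of 40.9 ± 10.7 and 43.5 ± 12.5 CPM were close (log2 difference 0.09, SE 0.28, interval -0.57 to 0.74, edgeR adjusted p = 0.9999). Klf3 (ENSMUSG00000029178.14, chr5:64803388-64832901, plus strand) was at 116, 105 and 140 CPM in WT and at 128, 112 and 119 CPM in KO. All 3 KO values lay inside the WT range, with means of 120 ± 17.5 and 120 ± 8.04 CPM. The Klf3 log2 difference of -0.01 (SE 0.14, interval -0.34 to 0.32, edgeR adjusted p = 0.9999) left room for 0.792 to 1.25 times the WT level.

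S1pr1 (ENSMUSG00000045092.8, chr3:115710433-115715072, minus strand), the egress receptor gene that KLF2 activates, was at 173, 195 and 126 CPM in WT and at 170, 203 and 113 CPM in KO. Each genotype had 1 low library, WT replicate 3 and KO replicate 3, and the means were 165 ± 35.0 and 162 ± 45.4 CPM. The log2 difference was -0.02 (SE 0.25, interval -0.62 to 0.57, edgeR adjusted p = 0.9999). The S1pr1 level did not follow Klf2 across the libraries. The ratio of S1pr1 to Klf2, per length of exon, was 2.85, 3.60 and 1.45 in WT and 1.90, 4.12 and 1.49 in KO. Its log2 mean was compared between the genotypes (exact two-sided permutation p = 1). That test does not ask whether the genes follow each other.

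Klf2, Klf3 and S1pr1 divided the libraries by table number, not by genotype, a pattern looked for after the values were seen. Klf2 stood at 33.2 ± 3.51 CPM over the 3 libraries of set A and at 51.2 ± 4.40 CPM over the 3 of set B, and Klf3 at 111 ± 5.61 and 129 ± 10.5 CPM. S1pr1 ran the other way, at 190 ± 15.3 CPM in set A and 137 ± 29.8 CPM in set B. In each of these 3 genes no library of one set reached the range of the other, which held for 18.1% of all genes (9.78% with set B higher and 8.31% with set B lower). The gap was narrow for Klf3, between 116 CPM (WT replicate 1, set A) and 119 CPM (KO replicate 3, set B). For S1pr1 it lay between 173 CPM (WT replicate 1, set A) and 170 CPM (KO replicate 1, set B). In an edgeR fit with genotype and set, the log2 difference of set B minus set A was 0.68 (SE 0.14, interval 0.32 to 1.03) for Klf2, 0.23 (SE 0.10) for Klf3 and -0.53 (SE 0.18) for S1pr1. The edgeR adjusted p was 0.341, 0.468 and 0.376, so none passed; over all genes 0% passed and 11.4% had an unadjusted p under 0.05. The other 6 genes overlapped between the sets.

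**Figure D3:**
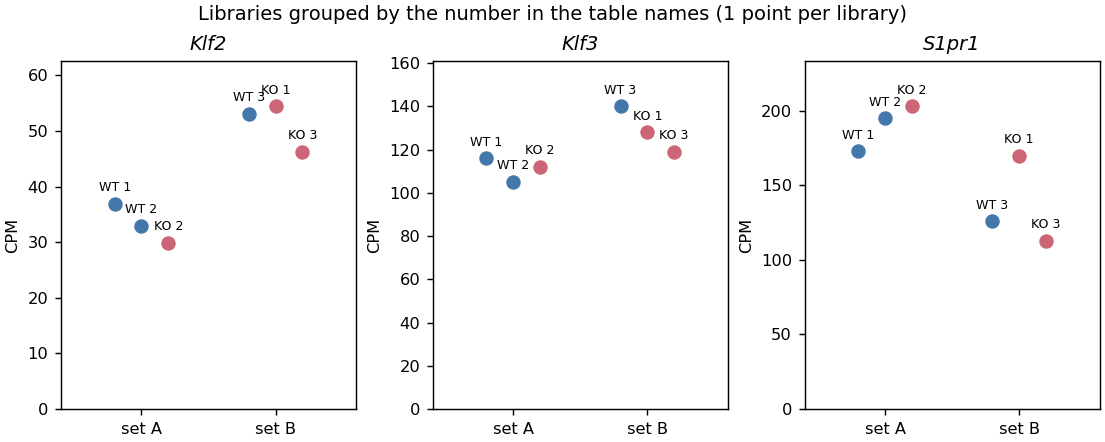
CPM of Klf2, Klf3 and S1pr1 with the libraries grouped by the number in the table names, 1 point per library, WT in blue and KO in red. Klf2 and Klf3 are higher in all 3 libraries of set B and S1pr1 is lower in all 3, with both genotypes in each set.

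With the set as a term, the genotype difference of Klf2 was -0.15 and that of S1pr1 was 0.15, both on the other side of 0 from the fit without it. Within set A the log2 difference, KO minus WT, was -0.22 for Klf2 and 0.14 for S1pr1, and within set B it was -0.08 and 0.13. Each of these rests on 1 KO or 1 WT library. For Tcf7 the values within sets A and B were 0.12 and 0.30, for Lef1 0.05 and 0.56, for Satb1 0.18 and 0.16, and for Foxp1 -0.01 and 0.25. Klf3 (0.02 and -0.18) and Igfbp4 (0.68 and -0.20) were also of opposite sign in the sets, and Dapl1 was positive in both (0.93 and 1.5).

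The transcripts closest in profile to these 3 genes were of varied kinds. For Klf2 the nearest was Ppp1cc, a catalytic subunit of protein phosphatase 1 (root mean square 0.060 in log2), followed by Eid1 (0.073). Klf3 followed the ribosomal protein gene Rpl13a (0.020) and Gm45713 (0.021), which had close levels in every library and may share reads. For S1pr1 they were Mtfr1l (0.084) and Serpinb9, an inhibitor of granzyme B (0.088). For Satb1 they were the nucleolar gene Rrp8 and Als2cl (both 0.12), and for Foxp1 Ankrd10 (0.029) and the cyclin gene Ccnl1 (0.034).

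Igfbp4 and Dapl1 are transcripts of resting T cells whose products are not transcription factors. IGFBP4 is a secreted protein that binds insulin-like growth factors. Igfbp4 (ENSMUSG00000017493.12, chr11:99041244-99054392, plus strand) was at 30.1, 22.6 and 38.5 CPM in WT and at 49.0, 41.7 and 22.9 CPM in KO. KO replicates 1 and 2 lay above every WT library and KO replicate 3 within the WT range, at its lower end. The means were 30.4 ± 7.97 and 37.9 ± 13.5 CPM (log2 difference 0.32, SE 0.32, interval -0.45 to 1.08, edgeR adjusted p = 0.9999), and the difference was 0.09 without KO replicate 1. Strn4, a scaffold of a phosphatase complex, was nearest to it in profile (0.052), then the histone methyltransferase gene Dot1l (0.13).

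Dapl1 (ENSMUSG00000026989.5, chr2:59484653-59505020, plus strand), named for its likeness to a death-associated protein, had the largest log2 difference of the 9. It was at 23.9, 35.8 and 19.5 CPM in WT and at 90.4, 55.6 and 34.0 CPM in KO. KO replicates 1 and 2 were above every WT library, and KO replicate 3 lay between WT replicates 1 and 2. The means were 26.4 ± 8.42 and 60.0 ± 28.5 CPM, 2.27 times as high in KO with an interval of 1.20 to 4.31. The log2 difference was 1.19 (SE 0.39), with an edgeR p of 0.0188 before adjustment and an adjusted p of 0.9999. DESeq2 gave an adjusted p of 0.295, and the exact two-sided permutation p over the 6 libraries was 0.2, where 0.1 is the smallest that 3 against 3 can give. Without KO replicate 1 the log2 difference was 0.76 (SE 0.34), and over the alternatives tried it ran from 0.76 to 1.47. The genes nearest to Dapl1 in profile were Dcun1d4 (0.15) and Enc1 (0.23), the largest root mean squares of the 9. This measure grows with a gene's own spread, which was also largest for Dapl1 (SD 0.81 in log2 CPM over the 6 libraries).

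**Figure D4:**
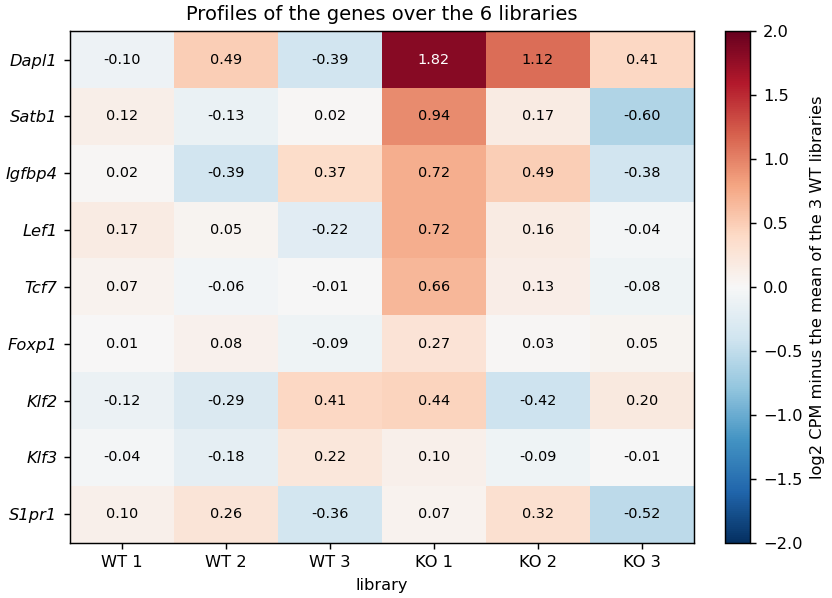
Log2 CPM of each gene in each library minus the mean of the 3 WT libraries, printed in each cell and coloured from blue (lower) to red (higher). KO replicate 1 is above the WT mean in all 9 genes, from 0.07 for S1pr1 to 1.82 for Dapl1, while KO replicate 3 is above it in 3 of 9.

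Read by library, KO replicate 1 stood apart from the other 5. It was above the WT mean in 9 of 9 genes, with a median of 0.66 in log2, and above every WT library in 7. KO replicate 2 was above the WT mean in 7 of 9 with a median of 0.16, and KO replicate 3 in 3 of 9 with a median of -0.04. KO replicate 3 was below every WT library in 3 genes, Tcf7, S1pr1 and Satb1. The WT libraries themselves had medians of 0.02, -0.06 and -0.01.

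Per length of annotated exon, Tcf7 was the most abundant of the 9 in both genotypes. In WT it stood at 142 ± 6.44 RPKM, which is CPM per kilobase of exon, above 95.2% of the tested genes. S1pr1 (54.1 ± 11.5 RPKM) and Dapl1 (38.9 ± 12.4 RPKM) followed and overlapped in range. Lef1 (24.0 ± 3.25 RPKM), Klf2 (22.2 ± 5.79 RPKM) and Foxp1 (20.0 ± 1.19 RPKM) formed a middle group, each neighbour overlapping the next. Klf3 (10.7 ± 1.56 RPKM) lay below them, and Igfbp4 (6.89 ± 1.80 RPKM) and Satb1 (6.35 ± 0.551 RPKM) overlapped at the bottom. In KO the order was the same but for Dapl1 (88.4 ± 41.9 RPKM), which had a higher mean than S1pr1 (53.2 ± 14.9 RPKM), with overlapping ranges. This order depends on the length used. With the longest coding transcript in place of all annotated exons, an alternative added after the values were seen, Tcf7 stayed first and the other 8 genes changed rank in WT. Lef1 was then second at 60.6 ± 8.20 RPKM, in a run of overlapping neighbours with S1pr1 (54.1 ± 11.5 RPKM), Dapl1 (46.0 ± 14.7 RPKM) and Foxp1 (38.4 ± 2.28 RPKM). Klf3 (23.1 ± 3.35 RPKM), Klf2 (22.2 ± 5.79 RPKM) and Satb1 (19.3 ± 1.68 RPKM) followed, each overlapping the next, and Igfbp4 (7.94 ± 2.08 RPKM) lay apart at the bottom.

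Other genes of naive and resting T cells had a mixed pattern, with 0 of 20 called. The KO mean was higher in 13 and lower in 7, the median log2 difference being 0.233. These lists, like the 9 genes, were drawn up with earlier results of these data known. Ets1, a factor of naive T cells, was at 997 ± 176 CPM in WT and 1050 ± 161 CPM in KO. Ccr7, the chemokine receptor for entry into lymph nodes, was at 249 ± 28.4 and 301 ± 67.3 CPM. Itgb7, an integrin chain used for homing to gut, was at 411 ± 14.2 and 303 ± 34.1 CPM with no overlap (log2 difference -0.44, SE 0.12, edgeR adjusted p = 0.9999, exact permutation p = 0.1). It was the 1 gene of the 20 that was lower in KO without overlap, against 4.07% of all genes.

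The IL-7 receptor gene Il7r and the cannabinoid receptor gene Cnr2, the latter chosen after its values were seen, were the members of that list with higher KO values and no overlap. Il7r was at 169, 149 and 106 CPM in WT and at 240, 246 and 195 CPM in KO. All 3 KO libraries lay above all 3 WT libraries, which for higher values in KO held for 3.68% of all genes. Its log2 difference was 0.68 (SE 0.19, edgeR adjusted p = 0.9999, exact permutation p = 0.1). Cnr2 was at 12.9 ± 4.45 and 22.4 ± 1.13 CPM. Unlike Dapl1, Satb1 and Tcf7, Il7r was not highest in KO replicate 1.

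Of 19 tested genes of quiescence and of restraint of division, 0 were called; the KO mean was higher in 10 and lower in 9 (median 0.03 in log2). The antiproliferative gene Btg1 was at 930 ± 49.4 CPM in WT and 792 ± 43.3 CPM in KO, with no overlap (log2 difference -0.23, edgeR adjusted p = 0.9999). Klf13, a relative of Klf2 and Klf3, was at 465 ± 7.67 and 522 ± 52.3 CPM, also with no overlap. Of the 19 genes, 1 was without overlap and higher in KO and 1 lower, against 3.68% and 4.07% of all genes. Slfn2, which keeps T cells quiescent, was at 538 ± 59.0 and 481 ± 2.92 CPM, and Btg2 at 185 ± 19.4 and 190 ± 14.2 CPM.

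Around S1pr1, 0 of 21 genes of the sphingosine-1-phosphate circuit and of cell migration were called, and the median log2 difference was -0.04. The most abundant were the actin regulator Coro1a (1820 ± 98.8 and 1760 ± 55.4 CPM in WT and KO), the GTPase Rac2 (1670 ± 4.15 and 1620 ± 151 CPM), its activator Dock2 (302 ± 10.8 and 338 ± 38.3 CPM) and the G protein Gnai2 (212 ± 75.8 and 198 ± 30.4 CPM). Cd69, the antagonist of S1PR1 and named after its values were seen, was at 88.8, 106 and 86.4 CPM in WT and at 56.2, 99.6 and 98.6 CPM in KO. KO replicate 1 had the lowest level, and the genotypes overlapped.

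The partners of TCF1 and LEF1 gave no call among 17 tested genes, 6 with higher and 11 with lower means (median log2 difference -0.09). The coactivator beta-catenin gene Ctnnb1 was at 84.9 ± 4.06 and 83.3 ± 9.68 CPM, and the kinase gene Gsk3b at 140 ± 13.5 and 131 ± 4.93 CPM. Hdac1 was at 135 ± 10.6 and 127 ± 13.9 CPM, and the corepressor gene Aes at 81.8 ± 29.0 and 69.5 ± 12.0 CPM. Among 18 relatives and partners of KLF3, SATB1 and FOXP1, 13 were tested and 0 called (7 higher, 6 lower, median 0.07). The CACCC- and GC-box-binding factors Sp3 (93.3 ± 3.29 and 92.3 ± 5.98 CPM) and Sp1 (51.9 ± 5.21 and 57.1 ± 7.21 CPM) led in abundance. Foxp3 was at 36.3 ± 3.41 and 32.2 ± 5.97 CPM, and Wwp1, a ubiquitin ligase of KLF2, at 13.7 ± 4.11 and 16.7 ± 7.38 CPM.

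Genes of effector Tregs had the opposite tilt in KO replicate 1. Of 30 such genes 27 had lower and 3 higher means in KO (median log2 difference -0.44), and 0 were called. In 7 of the 30 all KO libraries, KO replicate 3 among them, lay below all WT libraries, against 4.07% of all genes. This list too was drawn up with earlier results of these data known. The genes named next are the most abundant of the list, and in each of them the genotypes overlapped. Ikzf2, the gene of the Treg factor Helios, was at 471, 421 and 475 CPM in WT and at 181, 314 and 477 CPM in KO. The OX40 gene Tnfrsf4 was at 386, 331 and 401 CPM in WT and at 141, 278 and 376 CPM in KO. In both, KO replicate 1 was the lowest library and KO replicate 2 the next. KO replicate 3 was within the WT range for Tnfrsf4 and just above it for Ikzf2. Tnfrsf18 (GITR) was at 319 ± 59.7 and 235 ± 85.6 CPM, and the factor Maf at 251 ± 55.1 and 196 ± 75.9 CPM. The 12 pan T and Treg markers, which share Ikzf2, Il2ra and Ctla4 with this list, were also lowest in KO replicate 1. Their median log2 CPM there, minus each gene's mean over the 6 libraries, was -0.31, against -0.89 for the effector genes. Whether the tilt is particular to effector genes was not tested.

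**Figure D5:**
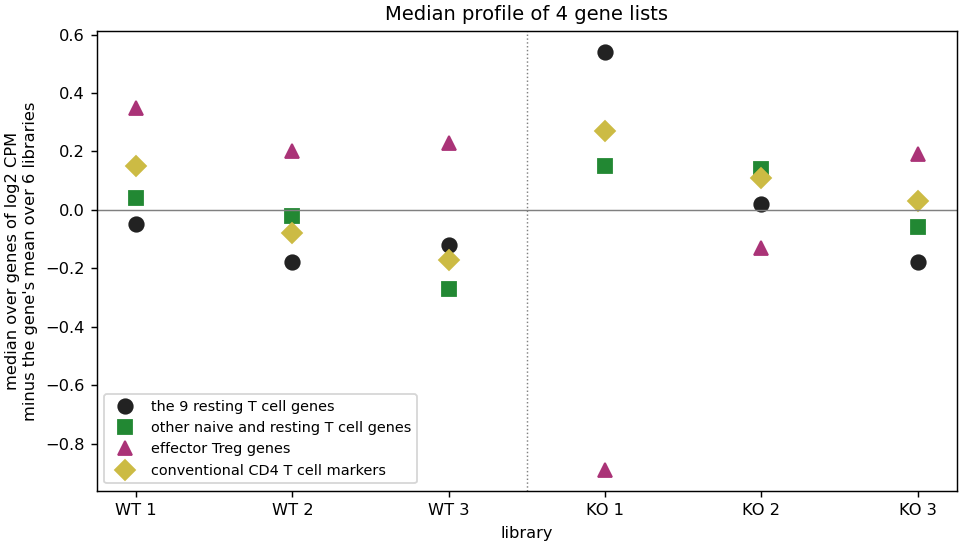
Median over the genes of each list of log2 CPM minus the gene's mean over the 6 libraries, 1 point per list and library. The 9 resting T cell genes are highest (0.54) and the effector Treg genes lowest (-0.89) in KO replicate 1, while in KO replicate 3 they stand at -0.18 and 0.19, close to the WT libraries.

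Markers of other cells differed between the libraries, and 0 genes of these lists were called. The 12 conventional CD4 T cell markers summed to 1160, 947 and 906 CPM in WT and to 1270, 1140 and 989 CPM in KO. The order of the KO replicates was that of Dapl1, Tcf7, Lef1 and Satb1. The order of the WT replicates was that of Lef1 but not of Dapl1, Tcf7 or Satb1. Of the 12, 8 had a higher and 4 a lower mean in KO (median 0.205 in log2). Without overlap, 2 were higher and 3 lower in KO, against 3.68% and 4.07% of all genes. That list holds Dgka (437 ± 71.3 and 480 ± 37.5 CPM in WT and KO), Il7r and genes that Tregs also express. In bulk RNA more cells of a type and more RNA per cell cannot be told apart. The 16 B cell markers, led by Ighm and Igkc, summed to 5760, 19900 and 3500 CPM in WT and to 11700, 15900 and 6940 CPM in KO, with WT replicate 2 the highest (14 means higher and 2 lower in KO). The 17 myeloid markers, led by Lyz2 and Cst3, summed to 242 to 1300 CPM in WT and 622 to 1430 CPM in KO, and the 13 CD8 T and NK markers, led by Ccl5 and Nkg7, to 201 to 425 and 336 to 464 CPM. The KO mean was higher in 17 of the 17 myeloid and in 11 of the 13 CD8 T and NK markers.

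Erythroid and platelet markers, led by Hba-a1 and Hba-a2, were highest in KO replicate 1, at a sum of 7680 CPM against 79.5 to 2770 CPM in the other libraries, and 8 of the 9 tested had a higher mean in KO. The 12 endothelial markers, relevant because endothelium expresses Klf2 and S1pr1, summed to 89.9 to 138 CPM in all libraries, nearly all of it Pecam1 (110 ± 24.0 and 115 ± 10.2 CPM). Vwf was next at 1.01 ± 1.26 and 1.23 ± 2.13 CPM, and Tek, Emcn, Sox17 and Lyve1 were at 0 in every library. What share of the values of the 9 genes came from cells other than Tregs was not tested.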

How the data were processed

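For each library the authors deposited raw gene counts, made with bcl2fastq 2.19.0.316, STAR 2.3 and featureCounts on mm10, per the submitters' processing notes. No source used here gives the annotation release, the use of strand or the handling of reads with several matches. Libraries were made with SMARTer Ultra Low Input RNA chemistry and read as single 50-base reads, per the labels' protocols; no molecular identifiers are named, so PCR copies count as reads.

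Symbols, positions and exon lengths came from GENCODE M21 on GRCm38, which mm10 also names; 53274 of 53379 identifiers matched without their version. Genotypes were compared with edgeR 4.0.16 in R 4.3.3: genes were filtered with filterByExpr and scaled by TMM, genotype was the single term of a robust quasi-likelihood model, and its two-sided p-values were adjusted by Benjamini-Hochberg over all 20475 genes. CPM use TMM library sizes, and RPKM divide CPM by the union of annotated exons. The common dispersion was 0.26. Alternatives were DESeq2 1.42.0, limma 3.58.1 (voom, with and without library quality weights), other filters and size factors, a replicate block, a library set term and each library left out. The fit was tested on simulated data. Profile likeness is the root mean square difference of centred log2 CPM over the 6 libraries, among protein-coding genes with a mean of at least 10 CPM. Upstream windows came from RefSeq on GRCm38.p6.

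The 9 genes and all gene lists were chosen with earlier results of these data known. Named were the 9 genes and their 2 nearest profiles, the 4 most abundant genes of each T cell list, the 2 most abundant of each list of other cells, Junb and Foxp3; Cnr2, Cd69 and the genes that overlap a named gene were chosen after their values were seen. A gene that the rule names is not reported here. Nothing says that replicates were separate animals, so p-values describe only how these libraries vary, which may be technical.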

Additional observations from a re-analysis of the deposited data

How the results depend on the processing

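In all 14 alternatives 0 of the 9 genes were called, 5 to 8 had a higher mean in KO and their median log2 difference lay between 0.022 and 0.415. Over all genes edgeR and limma-voom called 0 throughout (590 genes had an unadjusted p under 0.05 in the fit as reported) and DESeq2 called 63, Junb among them and none of the 9. Dapl1, Tcf7, Lef1, Foxp1 and Igfbp4 kept a positive difference in every alternative. The sign turned with the library set term for Klf2 (-0.15) and S1pr1 (0.15), and with library quality weights for Klf3 (0.02). It turned when 1 library was left out for Klf2 (-0.05 without WT replicate 2 and -0.11 without KO replicate 1), for Klf3 (0.11 without WT replicate 3 and 0.04 without KO replicate 2) and for Satb1 (-0.17 without KO replicate 1). S1pr1 turned in the same way (0.01 without WT replicate 1, 0.11 without WT replicate 2 and 0.18 without KO replicate 3). The cause of these turns was not tested. With 1 library left out, Klf2 ranged from -0.11 to 0.31, Klf3 from -0.1 to 0.11, S1pr1 from -0.22 to 0.18 and Satb1 from -0.17 to 0.60. With the length of the longest coding transcript 8 of the 9 ranks in WT changed: Lef1 moved from rank 4 to rank 2 in WT, Klf2 from 5 to 7 and Satb1 from 9 to 8, and the other 5 moved by 1 rank.

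The labels do not say whether the replicate numbers pair the libraries. The deviations of same-numbered WT and KO libraries correlated at -0.0948, 0.188 and 0.0354, and those of differently numbered ones at -0.18 to 0.134. These values do not settle whether the numbers mark pairs. With the replicate number as a block 0 genes and 0 of the 9 were called, 7 of 9 had a higher mean and their median was 0.174. Against the fit as reported, the SE was higher for Foxp1 and Igfbp4. It was lower for the others of the 9, most of all for S1pr1 (0.12 against 0.25). At the lowest count, 774 for Igfbp4, the counting error is at least 3.59%, a lower limit that takes reads as separate molecules although PCR copies were counted, where the coefficient of variation between WT libraries of that gene was 26.2%.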
